A study of Mus musculus with 6 samples.

Results

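Tuft cells are rare chemosensory cells of the gut epithelium, and 5 transcription factor genes of their lineage, Pou2f3, Spib, Gfi1b, Hmx2 and Hmx3, were examined in the pylorus of mice with and without Sox2. The 5 genes were taken by symbol from the 39179 rows of an RNA-seq table. They were chosen by name as tuft lineage factors, with the RPKM difference between Sox2 KO and Sox2 WT already known, so that difference is given below as a description and supports nothing; of the fit across all genes only the number of calls is given. All 5 symbols were found, and 3 of them (Spib, Pou2f3 and Hmx3) had a mean of at least 0.5 RPKM (reads scaled to transcript length and to library size) over the 6 libraries, the minimum for entering the fit across 14045 genes.

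The study deleted Sox2, which encodes an HMG-box transcription factor of stomach stem and progenitor cells, in adult mice. Both groups were Sox2 fl/fl on a C57BL/6 x 129 mixed background. The Sox2 KO group carried Rosa26CreER, and the Sox2 WT group, with Rosa26WT, had no Cre. All were given tamoxifen at 8 weeks and sampled 2 weeks later, although the age label reads 8 weeks. CreER at Rosa26 is expressed in most cell types, so deletion was not limited to the epithelium. RNA came from the epithelium and mesenchyme of the pylorus after the muscle layer was removed, with 3 libraries in each group, numbered here as in the labels. Whether the 3 came from separate mice is not stated, so the spread between them may be partly technical.

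In the small intestine Pou2f3, a POU-domain factor that binds the octamer motif, is required for tuft cells to form, and it works with small coactivators of the OCA-T family. Gfi1b is a zinc-finger repressor that recruits the demethylase LSD1 and CoREST, and is best known from red cell and platelet precursors. Hmx2 and Hmx3 are neighbouring homeobox genes known from inner ear and hypothalamus development, and Spib is an ETS factor known from B cells, plasmacytoid dendritic cells and the M cells that cover lymphoid follicles. Transcripts of all 5 have been used to mark tuft cells in single-cell surveys of gut epithelium.

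The promoters of Spib, Gfi1b and Hmx3 are shown because Spib had the highest level of the 5 genes and because those of Gfi1b and Hmx3 held the only motif matches found. RefSeq windows of 300 bases on GRCm38.p6 around the start site were matched for 4 of the 5 genes; Pou2f3 had no entry. The Spib window is chr7:44532022-44532321 (minus strand), that of Gfi1b chr2:28621933-28622232 (minus strand) and that of Hmx3 chr7:131542713-131543012 (plus strand). Capitals mark the only matches found for any of 5 searched motifs, and all are the GFI core AAATCA or its reverse complement TGATTT.
Spib: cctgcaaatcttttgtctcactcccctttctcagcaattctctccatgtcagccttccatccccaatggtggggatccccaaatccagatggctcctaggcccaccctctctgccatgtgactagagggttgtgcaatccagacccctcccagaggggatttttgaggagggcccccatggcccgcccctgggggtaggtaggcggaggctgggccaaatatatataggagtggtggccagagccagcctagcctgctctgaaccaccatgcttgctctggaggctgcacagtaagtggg
Gfi1b: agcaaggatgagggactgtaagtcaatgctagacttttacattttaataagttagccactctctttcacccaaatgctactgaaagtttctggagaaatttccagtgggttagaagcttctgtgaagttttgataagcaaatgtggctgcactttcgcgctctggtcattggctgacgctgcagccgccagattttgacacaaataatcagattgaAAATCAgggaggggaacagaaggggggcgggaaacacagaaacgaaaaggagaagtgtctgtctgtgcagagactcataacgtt
Hmx3: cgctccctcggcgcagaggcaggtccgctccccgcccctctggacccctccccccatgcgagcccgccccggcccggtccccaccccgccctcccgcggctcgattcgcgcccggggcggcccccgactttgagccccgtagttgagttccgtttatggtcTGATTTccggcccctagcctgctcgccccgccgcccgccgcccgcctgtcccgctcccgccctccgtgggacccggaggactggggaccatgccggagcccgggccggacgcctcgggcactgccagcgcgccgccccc

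The GFI core stands 34 bases before the start site in the Gfi1b window, at offset -34. In the Hmx3 window it stands in reverse orientation at offset -89. Offsets count from the RefSeq start site. The annotation used below for gene positions starts Hmx3 at 131542867, inside this window and before the match, so by that annotation the match is not upstream. Searched on both strands, the GFI core is present in 14.0% of 32851 mouse promoter windows of this length. The octamer ATGCAAAT (1.74% of windows), the ETS core GAGGAAGT (3.2%), the HMX core CAAGTG (13.6%) and the SOX core ACAAAG (18.7%) matched none of the 5 windows of Spib, Gfi1b, Hmx2 and Hmx3, of which Hmx2 has 2. GC content was 78.0% in the Hmx3 window, 58.0% in that of Spib and 44.3% in that of Gfi1b, against a median of 52.7% over all windows. The windows of Hmx2 had 50.0% and 67.7%. Such matches describe letters and not binding.

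On mm10, Pou2f3 (ENSMUSG00000032015) lies at chr9:43123939-43210369 and Spib (ENSMUSG00000008193) at chr7:44525993-44532071, both on the minus strand. Gfi1b (ENSMUSG00000026815) lies at chr2:28609450-28621982, also on the minus strand. Hmx3 (ENSMUSG00000040148, chr7:131542867-131544925) and Hmx2 (ENSMUSG00000050100, chr7:131548773-131558014) are on the plus strand, 3847 bases apart. In the annotation both Hmx genes sit inside the span of Fgfr2 on the opposite strand, but share 0 exon bases with it.

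The genotype labels were checked first on Sox2 itself. Sox2 was at 11.1, 9.03 and 10.9 RPKM in Sox2 WT, against 0.342, 0.21 and 0.42 in Sox2 KO, which leaves 3.13% of the Sox2 WT mean. Its log2 difference was -3.72 (SE 0.147; limma adjusted p = 2.9e-04), and the exact two-sided permutation test gave p = 0.1, the smallest possible with 3 against 3. Reads assigned to genes, recovered from the RPKM values, ran from 22052169 to 31484878 per library. The female-specific RNA Xist reached 36.3 RPKM in Sox2 WT replicate 2 and 33.3 RPKM in replicate 3, but no more than 0.0124 RPKM in any of the other 4 libraries. Ddx3y, on the Y chromosome, was at 10.3 RPKM in Sox2 WT replicate 1 and at 11.1 to 13.1 RPKM in Sox2 KO, and was listed at 0 in Sox2 WT replicates 2 and 3. All 3 Sox2 KO libraries thus carried male transcripts and 2 of the 3 Sox2 WT libraries female ones, so each difference below is also given against Sox2 WT replicate 1 alone where that moved it.

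Spib had the highest level of the 5 genes per unit of length. It was at 1.51, 1.99 and 2.25 RPKM in the Sox2 WT libraries 1, 2 and 3 (103, 158 and 163 recovered reads), against 4.94, 6.74 and 4.83 RPKM in the Sox2 KO libraries 1, 2 and 3 (417, 555 and 464 reads). Every Sox2 KO library lay above every Sox2 WT library, and the lowest Sox2 KO value was 2.14 times the highest Sox2 WT value. The means were 1.92 ± 0.38 and 5.5 ± 1.07 RPKM (SD, n = 3 each), a ratio of 2.87. On the log2(RPKM + 0.5) scale used for all differences here, which understates the change of low genes, Spib differed by 1.31 (SE 0.175). In bulk tissue, more cells of a type and more RNA per cell cannot be told apart, for Spib or for any gene below.

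Pou2f3, the lineage-defining factor, was at 0.742, 0.917 and 0.941 RPKM in the 3 Sox2 WT libraries (53, 76 and 71 reads) and at 1.49, 2.69 and 1.85 RPKM in the 3 Sox2 KO libraries (131, 231 and 186 reads). The groups did not overlap, but Sox2 KO replicate 2 stood above the other Sox2 KO libraries. The coefficient of variation was 12.5% in Sox2 WT and 30.6% in Sox2 KO. The means were 0.867 ± 0.108 and 2.01 ± 0.615 RPKM (SD, n = 3 each), a ratio of 2.32 and a log2 difference of 0.85 (SE 0.192).

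Hmx3 was at 0.228, 0.392 and 0.485 RPKM in Sox2 WT (8, 16 and 18 reads), against 1.13, 0.898 and 0.993 RPKM in Sox2 KO (49, 38 and 49 reads). The groups did not overlap, and for Hmx3 the highest Sox2 KO library was replicate 1. Its means were 0.368 ± 0.13 and 1.01 ± 0.117 RPKM (SD, n = 3 each), a ratio of 2.73 and a log2 difference of 0.80 (SE 0.164). Hmx3 reached the minimum of 0.5 RPKM only through its Sox2 KO libraries. Hmx3 had the fewest reads of the 3 tested members, with 42 reads over all of Sox2 WT against 136 over Sox2 KO.

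Hmx2, its neighbour, was at 0.255, 0.18 and 0.285 RPKM in Sox2 WT, against 0.507, 0.636 and 0.429 in Sox2 KO, again without overlap. The means were 0.24 ± 0.0544 and 0.524 ± 0.104 RPKM (SD, n = 3 each), a ratio of 2.18 and, without the minimum, a log2 difference of 0.47 (SE 0.111). Its reads came to 66 over Sox2 WT and 172 over Sox2 KO at a transcript length of 3572 bases. All 6 of its read numbers are even at that length, so a length of 1786 bases, with 9 to 13 reads per Sox2 WT library and 26 to 33 per Sox2 KO library, gives whole reads as well. The RPKM do not depend on that choice, but the Poisson intervals of Hmx2 do and would be wider at 1786 bases.

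Gfi1b was the lowest of the 5 and the only one whose groups overlapped. Gfi1b was at 0.145, 0.18 and 0.152 RPKM in Sox2 WT (9, 13 and 10 reads), against 0.157, 0.268 and 0.321 RPKM in Sox2 KO (12, 20 and 28 reads). Sox2 KO replicate 1 lay within the Sox2 WT range, while replicates 2 and 3 lay above it. The exact 95% Poisson interval, which covers counting error only, was 0.0809 to 0.274 RPKM for Gfi1b in Sox2 KO replicate 1 and 0.213 to 0.464 RPKM in replicate 3. The means were 0.159 ± 0.0186 and 0.248 ± 0.0839 RPKM (SD, n = 3 each), a ratio of 1.56 and a log2 difference of 0.18 (SE 0.0949), and the groups were not separated at this depth.

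**Figure D1:**
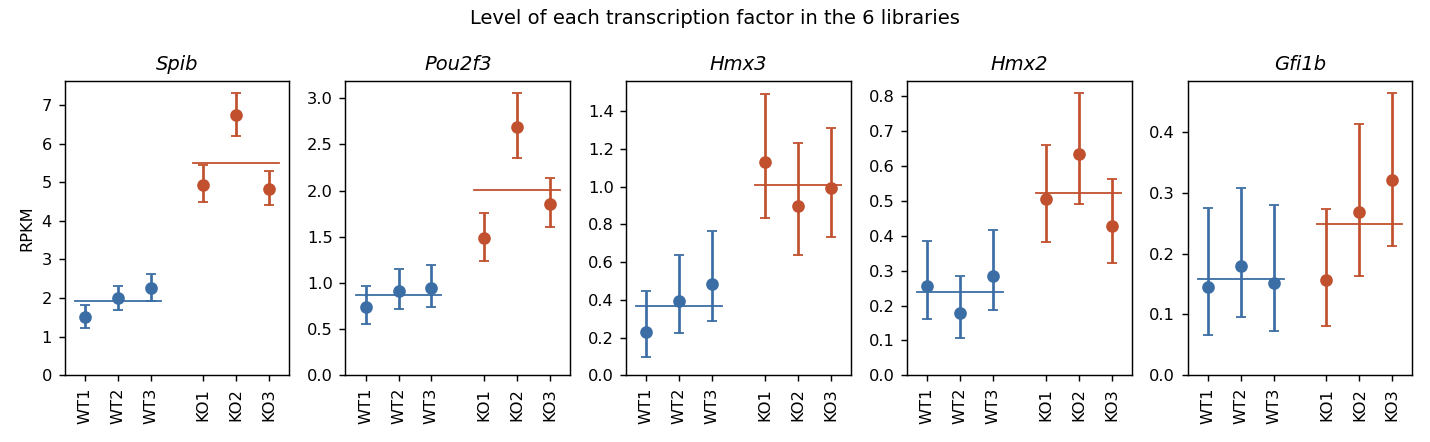
RPKM (vertical axis, from 0, a scale of its own for each gene) of Spib, Pou2f3, Hmx3, Hmx2 and Gfi1b in Sox2 WT libraries 1 to 3 (blue) and Sox2 KO libraries 1 to 3 (red). Points are single libraries, bars exact 95% Poisson intervals of the recovered reads and lines the group means. The Hmx2 bars rest on reads at a length of 3572 bases and would be wider at 1786 bases. Gfi1b alone has a Sox2 KO point within the Sox2 WT range.

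In 4 of the 5 genes, all but Gfi1b, the lowest Sox2 KO value exceeded the highest Sox2 WT value. The same held for 4.09% of the 14045 genes tested and 3.89% of all genes above 0. Nothing is read from that contrast, because the genes were chosen with it in view. By limma with Benjamini-Hochberg adjustment over all 14045 genes, 0 of the 3 tested members passed an adjusted p of 0.05, beside 4 genes (0.0285%) in the whole table. An unadjusted p under 0.05 was found for 442 of all genes tested. The median log2 difference of all genes tested was 0.02.

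Ordered by the mean of the 6 libraries, the levels were 3.71 RPKM for Spib, 1.44 for Pou2f3, 0.688 for Hmx3, 0.382 for Hmx2 and 0.204 for Gfi1b. Hmx3 was thus the member just inside the minimum and Hmx2 the one just outside it. In Sox2 WT the levels of Hmx3 (0.228 to 0.485 RPKM) and Hmx2 (0.18 to 0.285 RPKM) overlapped, and so did those of Hmx2 and Gfi1b (0.145 to 0.18 RPKM), which met at 0.18 RPKM, whereas Spib and Pou2f3 were separate from each other and from the rest. In Sox2 KO none of the neighbours in this order overlapped.

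Against Sox2 WT replicate 1 alone, the library that shares male transcripts with Sox2 KO, the log2 difference was 1.57 for Spib, 0.99 for Pou2f3 and 1.05 for Hmx3. Of the 3 Sox2 WT libraries, replicate 1 was the lowest for Spib, Pou2f3, Hmx3 and Gfi1b. With 1 library in an arm this is a comparison of values, and what sex contributes was not tested.

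Ratios taken inside each library compare the genes with one another and do not depend on how the libraries were scaled. Spib relative to Pou2f3 was 2.03, 2.17 and 2.4 in Sox2 WT and 3.32, 2.51 and 2.6 in Sox2 KO. These groups did not overlap, with means of 2.2 ± 0.185 and 2.81 ± 0.445 (SD, n = 3 each), although the gap between 2.4 and 2.51 is smaller than the spread within either group. Relative to Trpm5, the cation channel at the end of the taste signalling cascade, Spib was at 1.23, 1.26 and 1.35 in Sox2 WT and at 1.41, 1.46 and 1.6 in Sox2 KO, again without overlap. Here too the gap, between 1.35 and 1.41, is smaller than the range of values within either group. The Pou2f3 to Trpm5 ratio, in contrast, was 0.604, 0.579 and 0.564 in Sox2 WT and 0.426, 0.583 and 0.615 in Sox2 KO, and these ranges overlapped.

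The other ratios to Pou2f3 overlapped between the groups. Hmx3 relative to Pou2f3 averaged 0.417 ± 0.105 in Sox2 WT and 0.543 ± 0.213 in Sox2 KO, Hmx2 relative to Pou2f3 averaged 0.281 ± 0.0762 and 0.27 ± 0.062, and Gfi1b relative to Pou2f3 averaged 0.185 ± 0.0197 and 0.126 ± 0.0409 (SD, n = 3 each). For Gfi1b the 2 lowest ratios, 0.105 and 0.0996, were in Sox2 KO replicates 1 and 2. The ratio of the adjacent genes Hmx3 and Hmx2 ran from 0.893 to 2.18 in Sox2 WT and from 1.41 to 2.31 in Sox2 KO. Few reads lay behind this ratio, and what counting error contributed to its range was not tested.

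**Figure D2:**
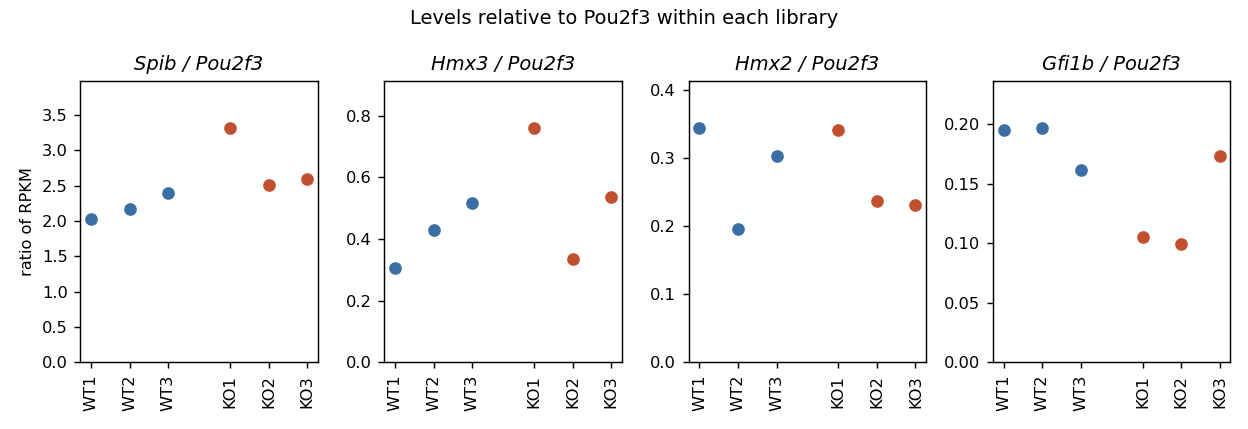
Ratio of the RPKM of Spib, Hmx3, Hmx2 and Gfi1b to that of Pou2f3 (vertical axis, from 0) within each Sox2 WT (blue) and Sox2 KO (red) library. Only the Spib ratio separates the groups, at 2.03 to 2.4 in Sox2 WT and 2.51 to 3.32 in Sox2 KO.

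The Sox2 KO libraries did not keep one order across the genes. Replicate 2 was the highest for Spib, Pou2f3 and Hmx2, replicate 1 for Hmx3 and replicate 3 for Gfi1b. Within Sox2 KO, Pou2f3 departed from its group mean by -0.31, 0.37 and -0.06 on the log2 scale in replicates 1, 2 and 3, and Spib by -0.13, 0.28 and -0.16. Hmx3 departed by 0.12, -0.11 and -0.01, opposite in sign to Pou2f3 and Spib in replicates 1 and 2.

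Genes with a profile most like each tested member were found by the mean absolute difference, over the 6 libraries, between log2(RPKM + 0.5) values centred on each gene's mean. This is a description over 6 libraries that share the Sox2 contrast. Predicted genes, such as those with Gm or Rik names, immunoglobulin segments and sex-linked genes were ranked but not named. Nearest to Pou2f3 among 14044 genes was Nrgn, which encodes the calmodulin-binding protein neurogranin (0.063), at 0.741, 1.04 and 1.09 RPKM in Sox2 WT, against 1.54, 2.52 and 1.86 in Sox2 KO. Then came Gnat3 (0.0885), encoding the taste G protein gustducin, Alox5ap (0.096), encoding the 5-lipoxygenase activating protein of leukotriene synthesis, the tuft marker kinase gene Dclk1 (0.11) and Eci3 (0.117), encoding an enoyl-CoA isomerase. Dclk1 was at 1.35, 1.46 and 1.67 RPKM in Sox2 WT, against 3.23, 4.19 and 2.63 in Sox2 KO.

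Nearest to Spib was Cdhr2 (0.0698), which encodes a protocadherin linking the tips of brush border microvilli. Cdhr2 was at 0.88, 1.19 and 1.54 RPKM in Sox2 WT, against 3.1, 4.08 and 2.79 in Sox2 KO. Sh2d6, an SH2-domain gene used as a tuft marker (0.0856), Trpm5 (0.122) and Rgs13, a regulator of G protein signalling (0.123), followed. For Hmx3 the nearest were Acsm3 (0.101), encoding a medium-chain acyl-CoA synthetase, Frat2 (0.105), encoding a GSK3-binding protein, and Hrct1 (0.111). The next genes named were Eci3 (0.124), at rank 5 of all genes, and Noxo1 (0.141), encoding an NADPH oxidase organizer, at rank 8. Tuft genes of the taste and effector lists, 28 of the 14044 ranked genes, made up 17 of the 100 nearest genes of Pou2f3, 17 of those of Spib and 8 of those of Hmx3. With a pseudocount of 0.1 these numbers were 18, 19 and 19, so the smaller number for Hmx3 depended on the pseudocount. Members and lists were both chosen with the Sox2 contrast known, and the profiles carry that contrast. Such numbers were therefore partly set in advance, and nothing is read from them.

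Tuft cells are also known by the taste cascade and by eicosanoid and cytoskeletal genes. Of 11 taste and chemosensory genes in the table, 6 were tested and 0 passed, with a median log2 difference of 0.99. In 5 of the 6 every Sox2 KO value exceeded every Sox2 WT value, beside 4.09% of all genes tested. Among these 5, Gng13 and Plcb2 reached the minimum only through Sox2 KO, with Sox2 WT means of 0.448 and 0.453 RPKM. For such genes the minimum favoured a higher Sox2 KO value, so nothing is read from the count or the median. Trpm5 was at 1.23, 1.58 and 1.67 RPKM in Sox2 WT, against 3.49, 4.61 and 3.02 in Sox2 KO. Rgs13 was at 2.58, 5.15 and 4.38 RPKM in Sox2 WT, against 8.56, 11.5 and 8.88 in Sox2 KO. The exception was Itpr3, the inositol trisphosphate receptor gene of the taste cascade, which many epithelial cells express. Itpr3 stood at 48.3, 37.7 and 54.5 RPKM in Sox2 WT, against 69.8, 50.1 and 39.2 in Sox2 KO. Of the 5 genes under the minimum, Gnb3 and Tas1r1 had no more than 0.0436 RPKM in any library.

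Of 25 structural and effector genes, 22 were tested, 1 passed (higher in Sox2 KO) and 16 had Sox2 KO above Sox2 WT, with a median log2 difference of 0.61. That call was lost when any 1 library was left out. The 4 most abundant genes of this list, Krt18, Cd24a, Avil and Vil1, are shared with other epithelial cells, and all 4 overlapped between the groups, with log2 differences of 0.22, -0.12, 0.20 and 0.11. Krt18 was at 583 to 829 RPKM in Sox2 WT, against 702 to 885 in Sox2 KO. Il25, the cytokine gene by which intestinal tuft cells activate type 2 immunity, was at 0.0739 to 0.134 RPKM in Sox2 WT, against 0.0973 to 0.278 in Sox2 KO, and Chat at no more than 0.0369 RPKM. Il25 and Chat were picked out after their values were seen. Both tuft lists hold genes known from these libraries to be higher in Sox2 KO, so their counts are not independent of the choice of the 5 factors.

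**Figure D3:**
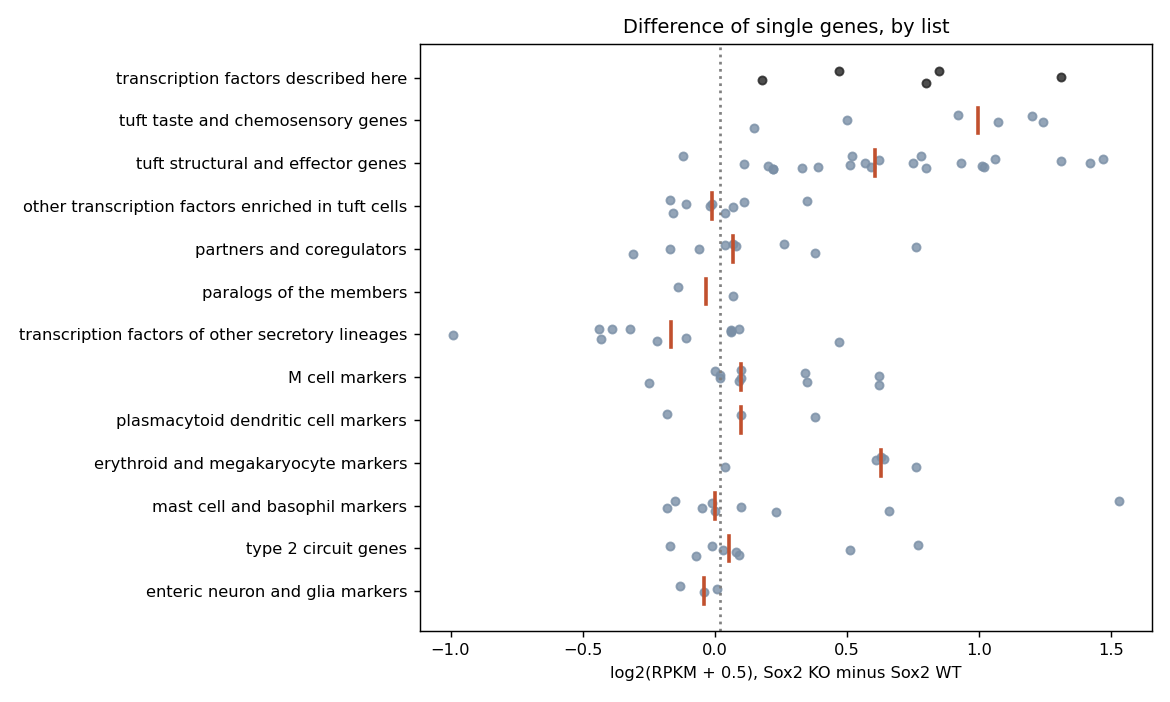
Log2 difference between Sox2 KO and Sox2 WT on the log2(RPKM + 0.5) scale (horizontal axis) of the 5 transcription factors (black) and of each tested gene of 12 lists (grey). Red bars are list medians, 0.99 for taste and chemosensory genes and -0.01 for the other tuft-enriched transcription factors, and the dotted line is the median of all genes tested, 0.02.

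A further list held transcription factors enriched in tuft cells but not limited to them. All 9 were tested, 0 passed, the groups overlapped in every one of the 9, and the median log2 difference was -0.01. The most abundant were Sox9, a progenitor factor (19.6 ± 2.06 and 19.4 ± 1.14 RPKM), Zfp710 (11.9 ± 1.65 and 12.5 ± 0.551), Runx1, also a blood factor (8.4 ± 1.68 and 7.44 ± 1.92), and Sox4 (5.4 ± 0.787 and 5.85 ± 0.411), each as Sox2 WT and Sox2 KO means with SD and n = 3.

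Among partners and coregulators, 9 of 11 genes were tested, 0 passed and 1 had Sox2 KO above Sox2 WT. That one was 1810046K07Rik, now Pou2af2, which encodes the Pou2f3 coactivator OCA-T1. It was at 0.722, 0.945 and 0.71 RPKM in Sox2 WT, against 1.57, 1.94 and 1.56 in Sox2 KO, a log2 difference of 0.76 (SE 0.143; limma adjusted p = 0.32). Gm684, the symbol in the table for Colca2 or Pou2af3, encodes a second coactivator of this family and was far more abundant, at 11.5, 20.2 and 10.9 RPKM in Sox2 WT, against 15.8, 17.9 and 20.1 in Sox2 KO. Its groups overlapped because Sox2 WT replicate 2 was as high as the highest Sox2 KO library. Pou2af1, the lymphoid coactivator gene, had a log2 difference of 0.26 and also overlapped.

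The corepressor genes through which Gfi1b acts overlapped as well. Their log2 differences were -0.06 for Kdm1a (LSD1), -0.17 for Rcor1, 0.04 for Rcor3, -0.31 for Hdac1 and 0.07 for Hdac2. Rcor2 was under the minimum, at 0.286 RPKM over the 6 libraries. For Irf8, an ETS partner, the means were 2.9 ± 0.377 RPKM (Sox2 WT) and 3.09 ± 0.0659 RPKM (Sox2 KO; SD, n = 3 each), and Irf4 was under the minimum at 0.273 RPKM. Among paralogs, Pou2f1 (log2 difference -0.14) and Spi1 (0.07), the closest ETS relative of Spib and a myeloid factor, were tested and overlapped. Pou2f2, Gfi1 and Spic were at no more than 0.134 RPKM in any library, and Hmx1 was listed at 0 in all 6.

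Goblet, endocrine and other secretory cells are specified by factors of their own. Of 14 such genes, 12 were tested, 0 passed, 0 had Sox2 KO above Sox2 WT and 3 had Sox2 KO below, with a median log2 difference of -0.16 (-0.28 against Sox2 WT replicate 1 alone). The share of all genes with Sox2 KO below Sox2 WT is not given here, so nothing is read from those 3. Among them were the endocrine lineage genes Neurog3 and Insm1, named after their values were seen. Neurog3, which specifies endocrine progenitors, was at 2.37, 1.67 and 1.83 RPKM in Sox2 WT, against 1.33, 1.5 and 1.13 in Sox2 KO. Insm1, a zinc-finger factor of endocrine differentiation, was at 4.71, 3.55 and 3.36 RPKM in Sox2 WT, against 2.42, 2.52 and 3.22 in Sox2 KO. Their log2 differences were -0.43 and -0.44 (limma adjusted p = 1.0 for each). The most abundant factors of this list, Creb3l1, Hes1, Foxa3 and Creb3l4, had log2 differences of 0.06, -0.11, 0.06 and 0.09 and overlapped. Atoh1, which intestinal secretory cells require, was at no more than 0.0165 RPKM in any library.

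**Figure D4:**
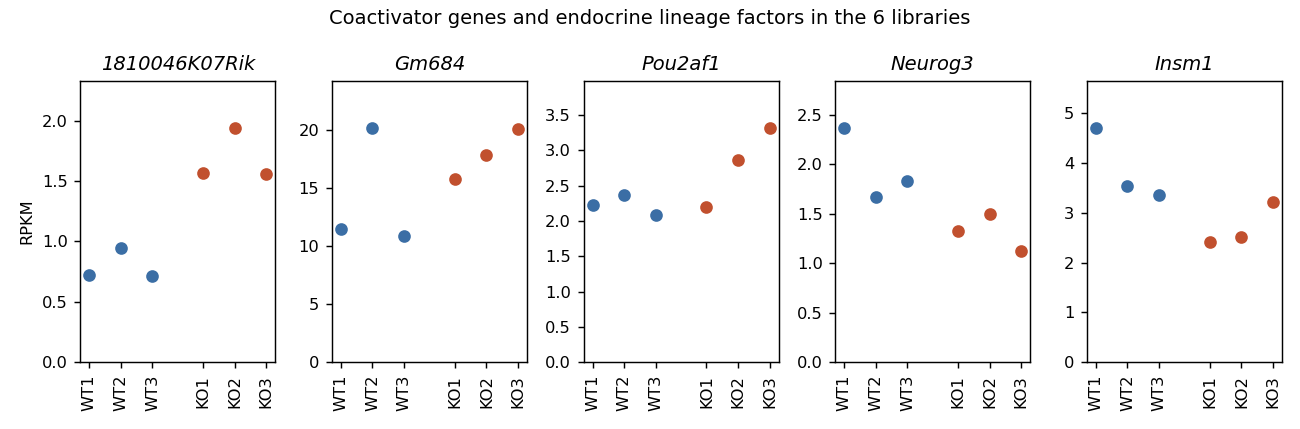
RPKM (vertical axis, from 0, a scale of its own for each gene) of the coactivator genes 1810046K07Rik, Gm684 and Pou2af1 and the endocrine lineage genes Neurog3 and Insm1 in each Sox2 WT (blue) and Sox2 KO (red) library. 1810046K07Rik lies higher in all 3 Sox2 KO libraries and Neurog3 and Insm1 lower, while Gm684 and Pou2af1 overlap.

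Other cell types that use these factors were measured in the same libraries, and their part in the levels of the 5 genes was not tested. For Spib, the 12 B cell markers summed to 1.11 to 1.65 RPKM in Sox2 WT, against 1.0 to 1.3 in Sox2 KO, with 0 of 12 reaching the minimum and Pax5 listed at 0 throughout. Of 10 plasmacytoid dendritic cell markers, 3 were tested, and Siglech was at 0.333 to 0.532 RPKM in Sox2 WT, against 0.268 to 0.444 in Sox2 KO. Their summed level, mostly that of Klk1, which salivary and other gland cells also express, was 112 to 135 RPKM in Sox2 WT, against 112 to 166 in Sox2 KO.

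Of 14 M cell markers, 11 were tested, 0 passed and 2 had Sox2 KO above Sox2 WT, with a median log2 difference of 0.10 (0.24 against Sox2 WT replicate 1 alone). Those 2 were Pglyrp1, encoding a peptidoglycan recognition protein, at 72, 71.9 and 74.1 RPKM in Sox2 WT, against 92.1, 108 and 142 in Sox2 KO, and the chemokine gene Ccl9 (log2 difference 0.35). Ccl9 was named after its values were seen. The summed M cell list was at 211 to 245 RPKM in Sox2 WT, against 246 to 297 in Sox2 KO. Without Pglyrp1, a sum chosen after the data were seen, the ranges overlapped, at 139 to 170 and 151 to 155 RPKM. Gp2, the defining receptor of mature M cells, was at 0.0544 to 0.253 RPKM in Sox2 WT, against 0.105 to 0.51 in Sox2 KO.

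For Gfi1b, 16 erythroid and megakaryocyte markers summed to 9.41 to 12.5 RPKM in Sox2 WT, against 14.2 to 19.2 in Sox2 KO. Of these, 5 were tested, 0 passed and 2 had Sox2 KO above Sox2 WT, with a median log2 difference of 0.63. The haemoglobin gene Hbb-bs was at 2.64, 2.04 and 3.28 RPKM in Sox2 WT, against 3.7, 6.55 and 4.49 in Sox2 KO, and near-identical haemoglobin copies share reads. Without Hbb-bs, a sum chosen after the data were seen, the ranges stayed apart, at 7.38 to 9.29 RPKM (Sox2 WT) and 9.73 to 12.6 RPKM (Sox2 KO). Gata1, which defines both lineages, was at 0.0161 to 0.103 RPKM in Sox2 WT, against 0.0607 to 0.207 in Sox2 KO, and overlapped, as did the platelet gene Pf4 (log2 difference 0.04). Of the other markers under the minimum, Alas2, Itga2b and Gp1ba had Sox2 KO above Sox2 WT, Tal1 had it below, and the rest overlapped. The sum over all 16 markers was thus higher in each Sox2 KO library than in any Sox2 WT library, and highest in Sox2 KO replicate 2. Gfi1b was highest in replicate 3, but its Poisson intervals in replicates 2 and 3 overlapped (0.163 to 0.413 and 0.213 to 0.464 RPKM). What blood cells contribute to the Gfi1b level was not tested.

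Of 11 mast cell and basophil markers, 9 were tested, 0 passed and 2 had Sox2 KO above Sox2 WT, with a median log2 difference of 0.00 after rounding and sums of 22.8 to 26.9 and 24 to 44.8 RPKM. The mucosal mast cell protease gene Mcpt2 was at 6.39, 5.8 and 6.57 RPKM in Sox2 WT, against 8.06, 14.8 and 8.79 in Sox2 KO. Mcpt1, named after its values were seen, was the other of the 2, with a log2 difference of 1.53. Of 13 type 2 immunity genes, 8 were tested and overlapped, with a median of 0.06. Il4, Il5 and Il13 were at no more than 0.193 RPKM in any library. Of 10 enteric neuron and glia markers, 3 were tested and overlapped, with a median of -0.04 (0.16 against Sox2 WT replicate 1 alone).

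Hmx2 and Hmx3 are neighbours of each other, with the values given above. Of the other genes beside the members on the chromosome, Mybpc2 next to Spib had higher values in every Sox2 KO library, but near 0. The rest overlapped between the groups. Mybpc2 was at 0.023, 0.03 and 0.022 RPKM in Sox2 WT, against 0.037, 0.086 and 0.057 in Sox2 KO. Pold1, which ends 674 bases upstream of Spib, was at 3.58, 2.38 and 2.52 RPKM in Sox2 WT, against 2.34, 2.17 and 3.71 in Sox2 KO. Oaf and Tmem136, beside Pou2f3, were at 10.1 to 11.4 and 0.303 to 0.32 RPKM in Sox2 WT, against 9.47 to 11.8 and 0.269 to 0.337 in Sox2 KO. Bub3, 2207 bases beyond Hmx2, was at 27.3, 28.4 and 31.0 RPKM in Sox2 WT, against 27.0, 28.4 and 38.5 in Sox2 KO. Fgfr2, whose span holds both Hmx genes, was at 8.35, 7.63 and 5.5 RPKM in Sox2 WT, against 6.22, 6.6 and 6.19 in Sox2 KO. Acadsb, on the far side of Hmx3, and Gtf3c5 and Tsc1, beside Gfi1b, overlapped between the groups too.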

How the data were processed

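RNA from the pyloric epithelium and mesenchyme was sequenced in 3 Sox2 WT and 3 Sox2 KO libraries. The authors deposited RPKM per gene, with CASAVA 1.7, STAR and mm10 named, per the submitters' processing notes; the sources used here give neither their counter nor their annotation. Dividing each RPKM by the value of 1 read gave whole reads (within 0.001) for 99.85% of 23538 genes above 0; transcript lengths were searched where the GENCODE release 21 length gave no whole reads, so read numbers rest on that search. The RPKM denominators were 24141183 to 33919303 reads.

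Differences were fitted with limma 3.58.1 (R 4.3.3) on log2(RPKM + 0.5), with a mean-variance trend and Benjamini-Hochberg adjustment over the 14045 genes with a mean of at least 0.5 RPKM, and a threshold of 0.05. Groups were compared without pairing. The p-values measure only the spread between these libraries. The fit was tested on simulated data.

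The members and the 13 gene lists were chosen with earlier results of these data known. The text names the 5 members, all partners and paralogs, up to 4 abundant genes and any called gene of each list, the 5 genes of most similar profile, and chromosomal neighbours; other names were chosen after their values were seen. A few genes within this rule are not reported here. Alternatives were pseudocounts of 0.1 and 1, other minimums, 2 scalings, no trend, robust moderation, a replicate block, limma voom on recovered reads, and libraries left out. Promoter windows came from RefSeq (GRCm38.p6).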

Additional observations from a re-analysis of the deposited data

How the results depend on the processing

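Of the members tested, 0 passed the limma threshold under any alternative. Their log2 differences stayed above 0, at 0.67 to 1.13 for Pou2f3, 1.15 to 1.57 for Spib, 0.56 to 1.43 for Hmx3, 0.30 to 1.08 for Hmx2 and 0.01 to 0.52 for Gfi1b, which was lowest under quantile normalization. The medians of 5 lists near 0 (-0.04 to 0.10) changed sign with libraries left out, to values between -0.05 and 0.16: the other tuft-enriched transcription factors, the paralogs, and the plasmacytoid dendritic cell, type 2 and enteric lists. The 4 members whose groups do not overlap became 2 of 2 with a minimum of 1 RPKM, since only Spib and Pou2f3 reach it, and were 4 to 5 with 1 library left out. The 4 genes past the threshold in the whole table became 8 with limma voom on recovered reads, 1 with the replicate block, 0 by limma without the 2 libraries with Xist above 1 RPKM, and 1 to 8 with 1 library left out. The 1 listed gene past the threshold became 0 without a minimum, with median-of-ratios scaling, with quantile normalization, with no trend, with the replicate block and without the Xist libraries, and was 0 to 0 with any 1 library left out. Without the Xist libraries the Sox2 log2 difference was -3.82, with a limma adjusted p of 0.154; the lone Sox2 WT library left is assumed to vary like the Sox2 KO ones. Over the other alternatives Sox2 stayed past the threshold. Without a minimum the median of the taste list was 0.24 over 11 genes and that of the erythroid and megakaryocyte list 0.14 over 16, since genes near 0 enter. Leaving out libraries lowers the number of samples; the cause of the other shifts was not tested. Whether replicate numbers pair the libraries was not settled. The deviations of same-numbered Sox2 WT and Sox2 KO libraries correlated at 0.00879, 0.097 and -0.074 over 14045 genes. Those of differently numbered libraries correlated at -0.158 to 0.165, so such values cannot tell pairs from other libraries. With a pseudocount of 0.1, 3, 3 and 2 of the 5 most similar genes of Pou2f3, Spib and Hmx3 were kept. With 8 to 18 reads of Hmx3 per Sox2 WT library and 9 to 28 of Gfi1b in any library, depth limits both.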
